A study of Drosophila melanogaster with 4 samples.

Results

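The 71 genes described here encode proteins of the mitochondrial ribosome of Drosophila melanogaster. They are the lines of the deposited tables whose gene symbol begins with mRpL, for the large subunit (45 genes), or mRpS, for the small subunit (26 genes), out of 13990 symbols in all. RNA came from fat bodies of larvae in the last instar with the strain label yw, dissected 110 h after egg laying, with 10 fat bodies pooled in each sample. In the ND-75-i group (2 libraries), dMef2-Gal4, a driver of muscle expression, was combined with UAS-ND-75-RNAi, a construct against a core subunit of complex I of the respiratory chain. In the Con group (2 libraries), the same driver was combined with UAS-white-RNAi, against an eye pigment transporter gene, so that larvae of both groups carried dMef2-Gal4 and an RNAi construct. The comparison asks how the fat body responds when complex I is perturbed in muscle. Nothing in the labels says that the libraries of a group came from separate crosses, so the p-values reflect the spread among these 4 samples alone, part of which may be technical.

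The mitochondrial ribosome translates the few messages encoded by mitochondrial DNA, all of them in animals for subunits of the respiratory chain and of the ATP synthase. Its RNAs come from mitochondrial DNA, whereas all of its proteins are encoded in the nucleus, made in the cytoplasm and imported. The large subunit carries the peptidyl transferase centre and the exit tunnel, and the small subunit binds the message and decodes it. Part of the proteins belong to families shared with the bacterial ribosome and part were added in mitochondria. The larval fat body stores nutrients and combines functions of liver and adipose tissue.

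Each library gave 1 FPKM per gene, a level that counts sequenced fragments relative to transcript length and library size, with a lower and an upper bound. ND-75-i libraries had summed FPKM of 957235 and 942561, and Con libraries of 861027 and 849472. Read depth is not given in the sources used here. The 10 highest genes held 18.8% and 20.1% of the sum in ND-75-i and 35.5% and 33.1% in Con. Since FPKM are relative values, the results were also computed after 2 rescalings. ND-75 itself stood at 94.8 and 79.0 FPKM in ND-75-i and at 46.6 and 43.9 FPKM in Con (log2 change 0.92, limma adjusted p = 0.0353, and 0.0793 on the median-ratio scale). The driver is not aimed at the fat body, so these values do not check the knockdown. Where values stand in pairs, replicate 1 comes before replicate 2. Changes are ND-75-i minus Con on the log2(FPKM + 1) scale with a standard error (SE), tested with limma over 10023 genes, and a gene was called when its Benjamini-Hochberg adjusted p was below 0.05.

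Transcripts of the mitochondrial ribosome were higher in the fat bodies of ND-75-i larvae. All 71 genes were measured with an OK status in every library and all passed the low-value filter. Of these, 31 rose and 0 fell in limma, where 7.76% of all genes tested rose and 1.09% fell. Without adjustment for multiple tests, 62 were higher at p below 0.05, against 29.4% of all genes tested, and 0 were lower. The median log2 change was 0.82, or 1.76-fold, beside 0.25 for all genes tested, and the interquartile range was 0.61 to 1.003. The summed FPKM of the 71 genes was 2483 and 2280 in ND-75-i and 1272 and 1351 in Con, which is 0.259% and 0.242% of all FPKM in ND-75-i and 0.148% and 0.159% in Con. In 70 of 71 genes both ND-75-i libraries lay above both Con libraries, a pattern found in 53.7% of all genes tested. In 49 of 71 the lower bounds deposited for both ND-75-i libraries lay above the upper bounds for both Con libraries, against 26% of all genes tested. Such bounds cover the error of each estimate and not the spread between larvae. In bulk RNA a change in the RNA of each cell and a change in the share of a cell type cannot be told apart.

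**Figure D1:**
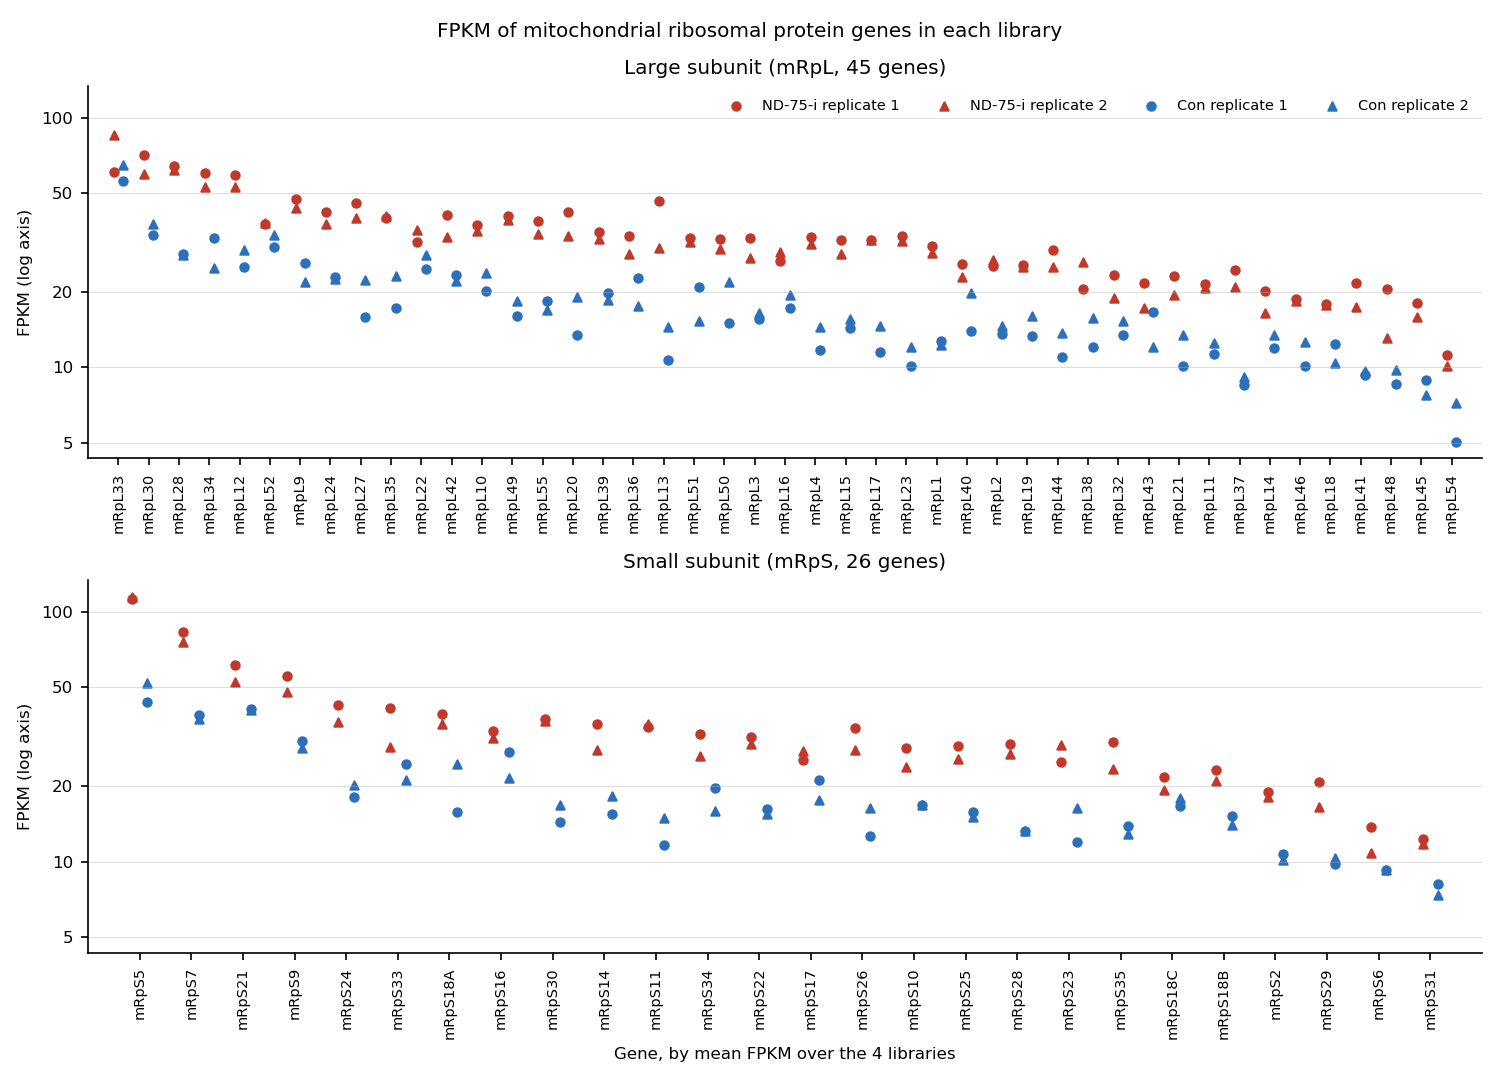
FPKM (log axis) of each mitochondrial ribosomal gene in each library, by subunit, ordered by the mean over the 4 libraries; red marks ND-75-i and blue Con, circles replicate 1 and triangles replicate 2. The ND-75-i values lie above the Con values for 70 of 71 genes, and mRpL33 is the exception.

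The size of the change depended on how libraries were put on 1 scale. Rescaling by median ratios moved the median of all genes from 0.25 to -0.01, and the median of the 71 genes was then 0.54, with 14 genes higher, 0 lower and 3.47% of all genes higher. Quantile normalization gave a median of 0.57, with 18 higher, 0 lower and 6.04% of all genes higher. The 14 genes called after median-ratio rescaling were called on the other 2 scales too. They are mRpL1, mRpL4, mRpL12, mRpL17, mRpL23, mRpL28, mRpL37 and mRpL49 of the large subunit and mRpS5, mRpS7, mRpS11, mRpS24, mRpS28 and mRpS30 of the small. With any 1 library left out, the sign could not turn in the 70 genes whose groups do not overlap, and mRpL33 stayed above 0. Almost all calls were then lost among the genes tested, and every call among the 71 genes. Without adjustment 48 to 58 of them were then higher at p below 0.05, and 0 lower, where 17.0% to 28.4% of all genes tested were higher.

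In the large subunit 20 of 45 genes rose and 0 fell, against 7.76% and 1.09% of all genes tested, with a median log2 change of 0.82. The smallest p belonged to mRpL28, of a family shared with bacteria, which lies on chromosome arm 2L from 4973978 to 4975284 (coordinates as deposited, of a build not given in the sources used here). It had 63.8 and 61.5 FPKM in ND-75-i and 28.4 and 28.3 FPKM in Con, a log2 change of 1.12 (SE 0.0849, limma adjusted p = 0.0186). Replicates of either group differed by far less than the groups did.

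Genes of proteins placed along the path of the growing chain had log2 changes between 0.33 and 1.48. In bacteria the counterpart of mRpL23 sits at the exit of the peptide tunnel, and those of mRpL4 and mRpL22 line its narrowest part. mRpL23 (arm 3L, 2372844 to 2373678) had 33.5 and 32.0 FPKM in ND-75-i and 10.2 and 12.0 FPKM in Con, and rose by 1.48 (SE 0.128, adjusted p = 0.0200), the largest change among the genes called. mRpL4 (arm 2L, 16328057 to 16329128) had 33.4 and 31.4 FPKM in ND-75-i and 11.7 and 14.5 FPKM in Con, and rose by 1.25 (SE 0.143, adjusted p = 0.0272). By contrast mRpL22, on chromosome X, had 31.7 and 35.4 FPKM in ND-75-i and 24.8 and 28.1 FPKM in Con. Its groups did not overlap, but its change of 0.33 (SE 0.121) did not pass (adjusted p = 0.137). mRpL45, whose mammalian counterpart attaches the ribosome to the inner membrane near the tunnel exit, had 18.2 and 15.9 FPKM in ND-75-i and 8.87 and 7.78 FPKM in Con, and rose by 0.95 (adjusted p = 0.0414).

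The stalks of the large subunit held further genes that rose. mRpL1 (arm 3R, 4127164 to 4128492), whose bacterial counterpart forms the stalk beside the exit site of transfer RNA, had 30.7 and 28.8 FPKM in ND-75-i and 12.8 and 12.3 FPKM in Con (log2 change 1.18, SE 0.104, adjusted p = 0.0207). mRpL12, of the opposite stalk that recruits translation factors, rose by 1.003 (SE 0.128, adjusted p = 0.0326). mRpL11, at the base of that stalk in bacteria, rose by 0.78, whereas mRpL10, which anchors mRpL12 there, had 37.1 and 35.3 FPKM in ND-75-i and 20.2 and 23.99 FPKM in Con and missed the threshold (log2 change 0.69, adjusted p = 0.0544). mRpL12, mRpL10 and mRpL11 were named after their values were seen.

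Proteins added in mitochondria carry numbers above the bacterial series, and some of their genes rose as far. mRpL49 (chromosome X, 12801139 to 12801877) had 40.2 and 38.9 FPKM in ND-75-i and 16.03 and 18.4 FPKM in Con, and rose by 1.16 (SE 0.114, adjusted p = 0.0224). mRpL37 (arm 3R, 6608285 to 6609794) had 24.5 and 20.99 FPKM in ND-75-i and 8.52 and 9.19 FPKM in Con, and rose by 1.27 (SE 0.136, adjusted p = 0.0248). Both genes had groups well apart in every library. Over both subunits 10 of 26 of the added genes rose, with a median log2 change of 0.78. Among genes of bacterial families 21 of 45 rose, with a median of 0.85, where 7.76% of all genes tested rose. Genes were placed in bacterial families by their number, up to 36 in the large and 21 in the small subunit, together with mRpL55, mRpS24 and mRpS28. This split was made after the values were seen and was not tested.

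Genes of proteins close to the peptidyl transferase centre, named after their values were seen, lay on both sides of the threshold. mRpL2 had 25.5 and 27.0 FPKM in ND-75-i and 13.6 and 14.6 FPKM in Con, and rose by 0.85 (adjusted p = 0.0323). mRpL3 had 33.1 and 27.3 FPKM in ND-75-i and 15.7 and 16.6 FPKM in Con, and rose by 0.86 (adjusted p = 0.0441). mRpL27, whose bacterial counterpart reaches toward transfer RNA at that centre, had 45.5 and 39.5 FPKM in ND-75-i and 15.9 and 22.4 FPKM in Con, with a log2 change of 1.12 (SE 0.200, adjusted p = 0.0533). The Con replicates of mRpL27 were further apart than those of mRpL2 or mRpL3. The groups of all these genes did not overlap, with ND-75-i higher as in 53.7% of all genes tested.

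The largest fitted change of all was not a call. mRpL13, also named after its values were seen, had 46.4 and 30.0 FPKM in ND-75-i and 10.7 and 14.5 FPKM in Con. Its log2 change was 1.51, with replicates so far apart that the SE was 0.277 and the adjusted p 0.0554. Its locus lies within that of CG10602, which had 53.2 and 56.1 FPKM in ND-75-i and 48.0 and 54.2 FPKM in Con.

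In the small subunit 11 of 26 genes rose and 0 fell, against 7.76% and 1.09% of all genes tested, with a median log2 change of 0.81. mRpS7 (arm 2L, 10386664 to 10387524), whose bacterial counterpart lies in the head near the exit path of transfer RNA, had 82.8 and 76.0 FPKM in ND-75-i and 38.7 and 37.1 FPKM in Con (log2 change 1.04, SE 0.0932, adjusted p = 0.0208). mRpS5 (arm 3L, 24530335 to 24536634), at the entry of the message channel in bacteria, had the highest mean of the 71 genes, with 112.7 and 114.6 FPKM in ND-75-i and 43.6 and 52.1 FPKM in Con (log2 change 1.24, SE 0.118, adjusted p = 0.0220). mRpS11 (arm 3R, 12898453 to 12899517), near the exit of that channel, had 34.5 and 35.6 FPKM in ND-75-i and 11.6 and 14.9 FPKM in Con. It rose by 1.35 (SE 0.152, adjusted p = 0.0269), the largest change of the small subunit.

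mRpS30, mRpS28 and mRpS22 were also among the 6 genes of the subunit with the smallest p. mRpS28 had 29.6 and 27.1 FPKM in ND-75-i and 13.2 and 13.3 FPKM in Con (log2 change 1.04, SE 0.108, adjusted p = 0.0238). mRpS22 (arm 3R, 23742631 to 23743970), a protein added in mitochondria, had 31.4 and 29.6 FPKM in ND-75-i and 16.3 and 15.5 FPKM in Con, and rose by 0.90 (SE 0.102, adjusted p = 0.0269), a call lost on the median-ratio scale (adjusted p = 0.0736). mRpS30 (chromosome X, 15680086 to 15682072) had 37.2 and 36.5 FPKM in ND-75-i and 14.4 and 16.9 FPKM in Con (log2 change 1.19, SE 0.121, adjusted p = 0.0236). Although named for the small subunit, the mammalian counterparts of mRpS30 and mRpS18A were found in structures of the large one.

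Further genes of the small subunit, named after their values were seen, fill the range between. mRpS24, of the bacterial S3 family at the entry of the message channel, had 42.5 and 36.3 FPKM in ND-75-i and 18.2 and 20.4 FPKM in Con, and rose by 0.99 (SE 0.132, adjusted p = 0.0344). mRpS9, whose bacterial counterpart reaches transfer RNA in the decoding region, had 55.5 and 47.9 FPKM in ND-75-i and 30.4 and 28.5 FPKM in Con, and rose by 0.79 (adjusted p = 0.0396). mRpS29, a GTP-binding protein known in mammals as DAP3, had 20.9 and 16.5 FPKM in ND-75-i and 9.75 and 10.3 FPKM in Con (0.83, SE 0.159), without passing (adjusted p = 0.0582). mRpS21, among the most abundant genes of the subunit, had groups that did not overlap but also did not pass. It had 61.1 and 52.5 FPKM in ND-75-i and 40.9 and 40.5 FPKM in Con (0.47, adjusted p = 0.0767).

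The least changed genes of the small subunit were mRpS18C, mRpS6, mRpS16 and mRpS17. The bacterial counterparts of mRpS6 and mRpS18 bind each other on the platform, and those of mRpS16 and mRpS17 bind ribosomal RNA directly. mRpS18C had 21.8 and 19.3 FPKM in ND-75-i and 16.7 and 17.99 FPKM in Con, a log2 change of 0.23 (SE 0.121, adjusted p = 0.222) that became -0.047 with median ratios and -0.023 with quantiles. mRpS6 had 13.8 and 10.8 FPKM in ND-75-i against 9.29 and 9.29 FPKM in Con (0.36, adjusted p = 0.182). mRpS16 had 33.3 and 31.3 FPKM in ND-75-i against 27.6 and 21.7 FPKM in Con (0.39, adjusted p = 0.151), and mRpS17 had 25.6 and 27.8 FPKM in ND-75-i against 21.2 and 17.7 FPKM in Con (0.44, adjusted p = 0.109). In all 4 the groups did not overlap and none passed. The other paralogs of mRpS18C, mRpS18A and mRpS18B, named after their values were seen, had log2 changes of 0.88 (SE 0.235, adjusted p = 0.0906) and 0.57 (SE 0.119, adjusted p = 0.0647).

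The least changed genes of the large subunit were mRpL52, mRpL33, mRpL22 and mRpL43. mRpL33, a small protein with a transcript of 349 bases, had 60.7 and 85.7 FPKM in ND-75-i and 55.8 and 64.5 FPKM in Con. It is the 1 gene of the 71 whose groups overlapped (log2 change 0.26, SE 0.205, adjusted p = 0.369), and its change was -0.026 with median ratios. mRpL52 had 37.5 and 38.01 FPKM in ND-75-i and 30.3 and 33.8 FPKM in Con (0.23, SE 0.102, adjusted p = 0.177), with -0.052 under median ratios and -0.023 under quantiles. mRpL43 had 21.8 and 17.3 FPKM in ND-75-i and 16.7 and 12.1 FPKM in Con (0.43, SE 0.217, adjusted p = 0.212). mRpL52 and mRpL43 belong to the proteins added in mitochondria.

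**Figure D2:**
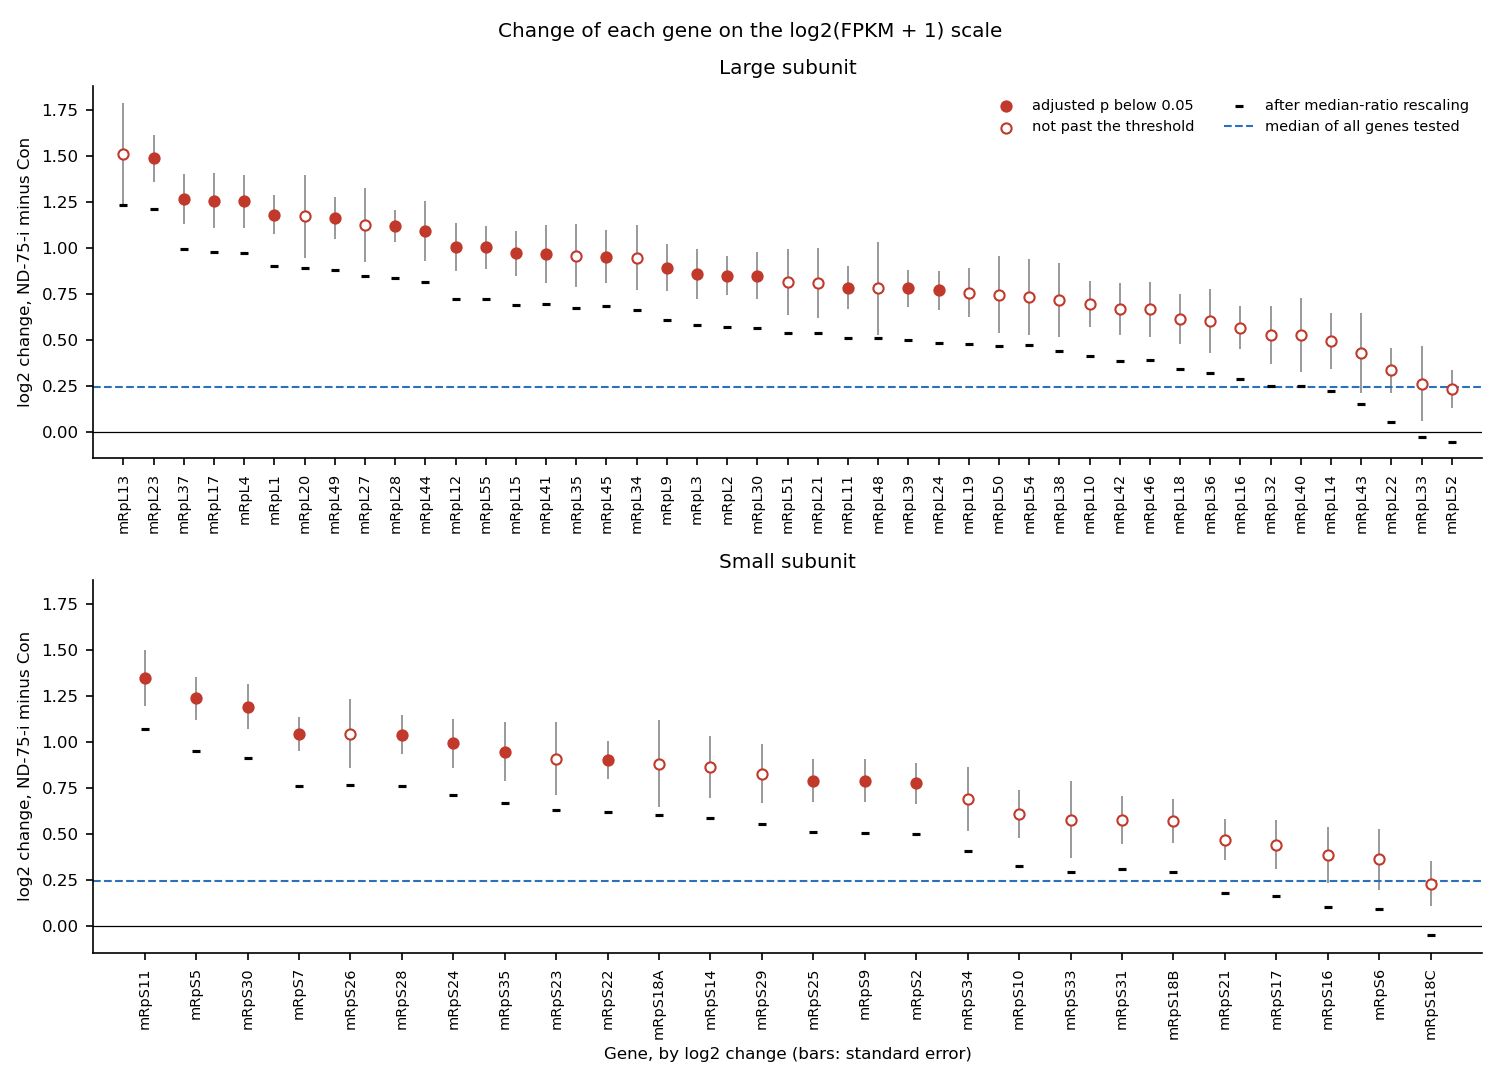
Log2 change (ND-75-i minus Con, with standard error) of each gene by subunit, ordered by size; filled points passed an adjusted p of 0.05, short black lines are the values after median-ratio rescaling and the dashed line is the median of all genes tested, 0.25. Of the 71 genes 31 are filled, and 3 lie below 0 after rescaling.

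The median changes of the large and the small subunit were close. They were 0.82 and 0.81 on the log2 scale and differed by less than the values within either, which ran from 0.23 to 1.51 in the large and from 0.23 to 1.35 in the small subunit. The median FPKM of the large subunit was 32.6 and 29.8 in ND-75-i and 14.4 and 16.1 in Con. That of the small subunit was 32.0 and 27.9 in ND-75-i and 15.8 and 16.7 in Con. The mean FPKM of the large over that of the small subunit was 0.928 and 0.950 in ND-75-i and 0.914 and 0.966 in Con, so the groups overlapped in this ratio. In the ratio of the medians they did not, with 1.02 and 1.07 in ND-75-i and 0.912 and 0.966 in Con. With mRpS18A and mRpS30 counted with the large subunit, 21 of 47 genes of the large and 10 of 24 of the small subunit rose. The share over all genes tested was 7.76%. No test was made of the difference between the subunits.

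**Figure D3:**
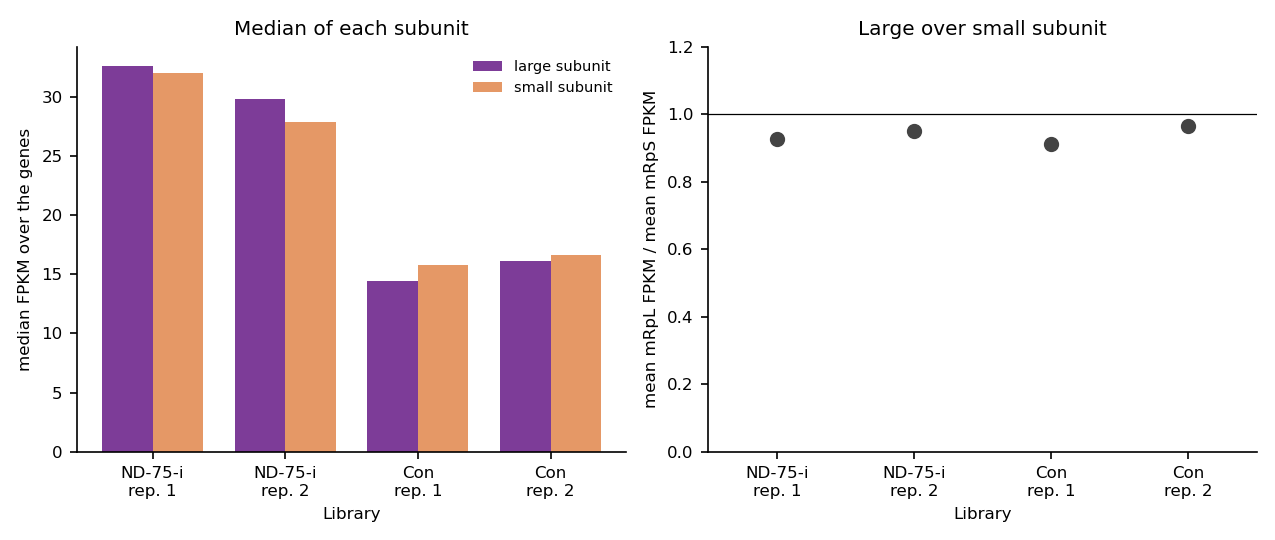
Left, median FPKM of the large (45 genes) and small (26 genes) subunit in each library; right, mean FPKM of the large over that of the small subunit. The medians lie between 27.9 and 32.6 in ND-75-i and between 14.4 and 16.7 in Con, and the ratio lies between 0.914 and 0.966 in all libraries.

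Levels differed among the genes more than between the groups. The highest gene exceeded the lowest by 10.0 and 11.3 times in ND-75-i and by 11.05 and 8.95 times in Con, while the upper quartile was 1.66 and 1.62 times the lower in ND-75-i and 1.78 and 1.63 times in Con. In ND-75-i the order by mean FPKM began with mRpS5, mRpS7, mRpL33, mRpL30 and mRpL28, where the values of mRpS7 lay within the range of mRpL33. In Con mRpL33 stood first and mRpS5 next. mRpL30, second in mean level in the large subunit, had 70.9 and 59.5 FPKM in ND-75-i and 34.0 and 37.4 FPKM in Con, and rose by 0.85 (SE 0.129, adjusted p = 0.0417).

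The same 2 genes stood last in both groups. mRpL54 had 11.3 and 10.2 FPKM in ND-75-i and 5.05 and 7.21 FPKM in Con (log2 change 0.73, adjusted p = 0.0991). mRpS31 had 12.3 and 11.8 FPKM in ND-75-i and 8.17 and 7.34 FPKM in Con (0.57, adjusted p = 0.0730). Across the 71 genes the Spearman correlation of the mean levels of the groups was 0.812, and between replicates it was 0.937 in ND-75-i and 0.887 in Con, as a description, since the genes share libraries. Of the 71 genes 45 kept their rank within 10 places. mRpL23 stood at rank 28 in ND-75-i against 62 in Con, and mRpS18C at rank 59 in ND-75-i against 30 in Con.

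Replicates of a group also differed in common. Between the ND-75-i libraries 60 of 71 genes were higher in replicate 1, by a median of 0.15 on the log2 scale, where the median of all genes was 0.09. Between the Con libraries 26 of 71 were higher in replicate 1, with a median of -0.11 beside -0.05 for all genes. The smallest difference between groups, ND-75-i replicate 2 over Con replicate 2, had a median of 0.73 over the 71 genes.

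Mitochondrial ribosomal genes that the tables list under other names rose as well. They are tko, which encodes the decoding-site protein of the S12 family and gives bang-sensitive flies when mutated, bonsai, of the S15 family, and Rlc1, the current mRpL47. tko had 32.2 and 34.1 FPKM in ND-75-i and 15.6 and 18.9 FPKM in Con (log2 change 0.91, SE 0.133, adjusted p = 0.0390). bonsai had 46.0 and 42.9 FPKM in ND-75-i and 21.3 and 21.9 FPKM in Con (1.01, SE 0.0955, adjusted p = 0.0220). Rlc1 had 33.9 and 28.5 FPKM in ND-75-i and 14.7 and 16.4 FPKM in Con (0.96, SE 0.139, adjusted p = 0.0386). On the median-ratio scale bonsai alone of the 3 was called, with an adjusted p of 0.0426.

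The factors that work with the ribosome were mixed. A list of 38 genes of mitochondrial translation, transcription and RNA handling was drawn up, of which 34 were matched and 33 tested, and 7 rose and 0 fell, with a median log2 change of 0.64. All 7 are among the 17 factors tested, and 7.76% of all genes tested rose. Of 16 genes of mitochondrial aminoacyl-tRNA synthetases, with the related SLIMP among them, limma called 0 and the median was 0.51. In limma without adjustment 12 of the 17 factors and 10 of the 16 synthetase genes were higher at p below 0.05, and 0 lower. The share of all genes tested that were higher was 29.4%. The difference between these parts of the list was not tested.

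Both elongation factors that rose act directly on the ribosome. EfTuM, the factor that delivers aminoacyl-tRNA, had 78.5 and 68.4 FPKM in ND-75-i and 31.1 and 33.9 FPKM in Con (log2 change 1.15, SE 0.115, adjusted p = 0.0231). CG4567, the translocase mEFG1, had 11.4 and 10.4 FPKM in ND-75-i and 3.46 and 3.64 FPKM in Con (1.39, SE 0.147, adjusted p = 0.0245). On the median-ratio scale these were the 2 genes of the list still called, with adjusted p = 0.0314 for EfTuM and 0.0344 for CG4567.

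The other factors that rose handle RNA. mTerf3, needed for assembly of the mitochondrial ribosome in mouse and fly, had 12.8 and 13.7 FPKM in ND-75-i and 5.41 and 5.63 FPKM in Con (1.13, SE 0.130, adjusted p = 0.0276). The pentatricopeptide repeat genes CG14786 (Lrpprc2) and bsf, whose proteins bind mitochondrial messages, rose by 1.03 and 1.01 (adjusted p = 0.0323 and 0.0353). CG33649 (GatC), of the enzyme that makes glutaminyl-tRNA, rose by 0.69 (adjusted p = 0.0450), and mtRNApol, the mitochondrial RNA polymerase, named after its values were seen, by 1.11 (adjusted p = 0.0466). After quantile normalization mTerf3, CG14786, bsf and mtRNApol stayed called in limma beside EfTuM and CG4567, whereas CG33649 did not (adjusted p = 0.0798). The gene of valyl-tRNA synthetase, CG5660, was the 1 gene of the list below 0, with 2.85 and 1.55 FPKM in ND-75-i and 3.36 and 2.05 FPKM in Con (-0.22, adjusted p = 0.633). CG12736 (mEFTu2) was not tested, because its estimate failed in ND-75-i replicate 2.

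The median change of the mitochondrial ribosome lay between that of complex I and that of the cytoplasmic ribosome. In complex I, with its testis paralogs included, 30 of 38 genes rose, with a median log2 change of 1.25, where 7.76% of all genes tested rose. In 32 of the 38 both ND-75-i libraries lay above both Con libraries, and in 5 below. Over all genes tested these shares were 53.7% and 21.7%. Among cytoplasmic ribosomal genes, listed by symbol with paralogs included, 13 of 89 rose, RpL24-like and RpL7-like among them, with a median of 0.56. In limma without adjustment 80 of the 89 were higher at p below 0.05 and 0 lower, where 29.4% of all genes tested were higher. In 81 of the 89 both ND-75-i libraries lay above both Con libraries, against 53.7% of all genes tested, and in 3 below. The bounds were apart with ND-75-i higher in 81, against 26% of all genes tested. On the median-ratio scale 0 of the 89 were called. There 24 were higher and 1 lower in limma at p below 0.05 without adjustment, where 15.9% of all genes tested were higher and 16.9% lower. No test was made between these lists. Per length of transcript, the median mitochondrial ribosomal gene stood at 32.6 and 28.9 FPKM in ND-75-i and 15.5 and 16.5 FPKM in Con. The median complex I gene stood at 160 and 136 FPKM in ND-75-i and 64.0 and 62.2 FPKM in Con, and the median cytoplasmic ribosomal gene at 2649 and 2750 FPKM in ND-75-i and 1729 and 1894 FPKM in Con.

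**Figure D4:**
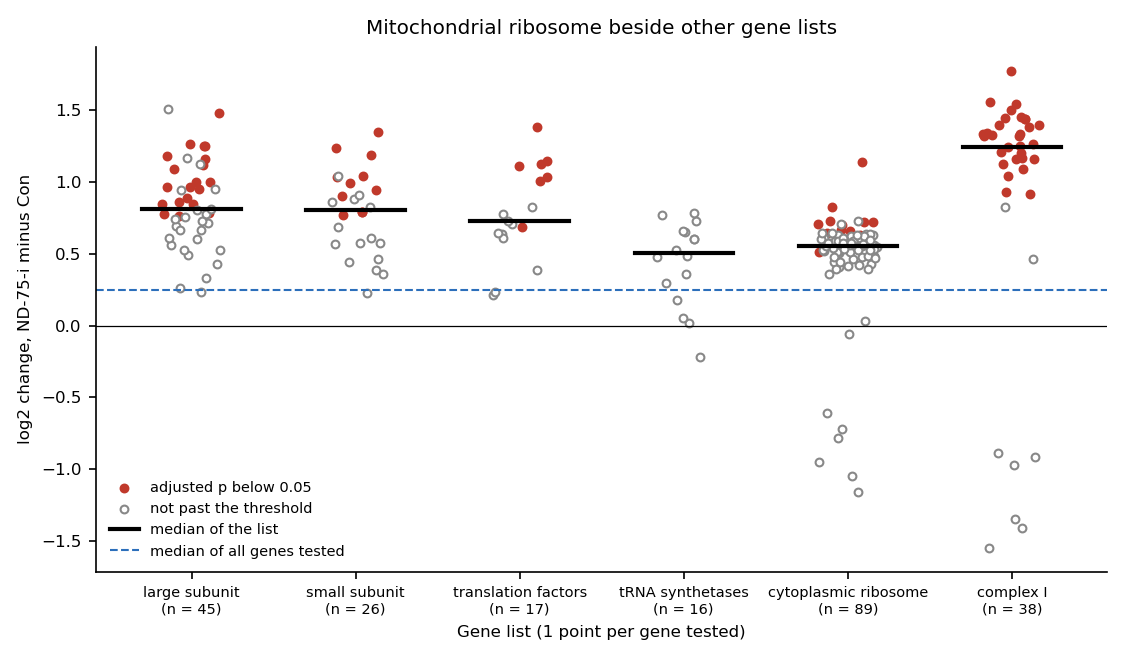
Log2 change (ND-75-i minus Con) of each tested gene in the mitochondrial ribosome and 4 other lists; filled points passed an adjusted p of 0.05, black bars are list medians and the dashed line is the median of all genes tested. The subunit medians, 0.82 and 0.81, lie below that of complex I, 1.25, and above those of the synthetases, 0.51, and the cytoplasmic ribosome, 0.56.

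The 71 genes are short and scattered. The longest transcript of each, in the current annotation, had a median of 774 bases and 2 exons, against 1832 bases and 3 exons for the tested genes that could be matched, and 66 of 71 genes had 1 start site in the tables. They lay on arms 2L (12 genes), 2R (11), 3L (17), 3R (20) and X (11). Calls were 5 of 12, 2 of 11, 8 of 17, 11 of 20 and 5 of 11 on these arms, in that order. Of the 71, 39 overlap the locus of another gene, and the counting is not stated to use strand, so reads cannot be assigned to one or the other with certainty there. Of these 39 genes 20 rose and of the other 32 genes 11 did, with a median of 0.82 in both. The share of all genes tested that rose was 7.76%, for these counts and for those by arm. mRpL18, named after its values were seen, has a locus that overlaps Taz and ox, a gene of complex III. It had 17.95 and 17.86 FPKM in ND-75-i and 12.4 and 10.4 FPKM in Con without passing (adjusted p = 0.0695), while ox had 592 and 489 FPKM in ND-75-i and 198 and 172 FPKM in Con. One edge of the mRpL23 locus overlaps CG8993, which had 114.8 and 100.2 FPKM in ND-75-i and 60.7 and 58.9 FPKM in Con and rose by 0.83 (adjusted p = 0.0321).

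Markers of other tissues were present and differed between libraries. Of 8 fat body markers 5 had usable values in every library, and they summed to 11649 and 21602 FPKM in ND-75-i and 48594 and 54988 FPKM in Con. Within them Fbp2, the highest, stood at 6380 and 16337 FPKM in ND-75-i and 29136.5 and 33073 FPKM in Con. Fbp1, induced by ecdysone late in larval life, stood at 22.5 and 393 FPKM in ND-75-i and 14971 and 17897 FPKM in Con. Its log2 change of -7.41 (SE 1.45, limma adjusted p = 0.0594) was the lowest of all genes tested. Larvae were matched by hours after egg laying, and whether the groups had reached the same stage of development was not tested. By contrast apolpp, the lipoprotein gene, stood at 2940 and 3098 FPKM in ND-75-i and 2688 and 2237 FPKM in Con. Lsd-1 had a log2 change of -0.17 and FASN1 of 0.78, and limma called 0 of the 5 markers. All 5 salivary gland markers were detected in every library and summed to 26532 and 17975 FPKM in ND-75-i and 81828 and 38740 FPKM in Con. Their log2 changes ran from -2.15 to -1.09, and limma called 0 of them. The 10 muscle markers, the tissue of the driver, summed to 61.1 and 44.7 FPKM in ND-75-i and 31.8 and 39.8 FPKM in Con, with none of them at 0 FPKM. Act57B, the highest, stood at 21.4 and 16.9 FPKM in ND-75-i and 6.62 and 12.2 FPKM in Con. Act87E, bt and sls had log2 changes of -0.48, -0.46 and -0.09, the other muscle markers lay above 0, and limma called 0 of the 10. The 5 testis markers summed to 121 and 23.6 FPKM in ND-75-i and 197 and 137 FPKM in Con, and the 4 haemocyte markers to 20.6 and 29.4 FPKM in ND-75-i and 26.9 and 75.4 FPKM in Con. The 3 of 4 nervous system markers that were measured summed to 71.9 and 64.7 FPKM in ND-75-i and 59.7 and 67.1 FPKM in Con, most of it Syt1 with 52.8 and 50.4 FPKM in ND-75-i and 54.4 and 62.8 FPKM in Con. The neuronal gene elav stood at 13.7 and 10.7 FPKM in ND-75-i and 4.04 and 3.34 FPKM in Con, and rose by 1.49 (adjusted p = 0.0336). The synaptic gene brp stood at 5.42 and 3.62 FPKM in ND-75-i and 1.22 and 0.970 FPKM in Con, with a log2 change of 1.38 that did not pass (adjusted p = 0.0563). Both thus had ND-75-i above Con in every library, as the mitochondrial ribosomal genes other than mRpL33 did. That pattern was found in 53.7% of all genes tested. Syt1 went the other way, with a log2 change of -0.18. The 5 gut markers summed to 210 and 685 FPKM in ND-75-i and 136 and 796 FPKM in Con, most of it Jon65Aiii, with Jon99Ci at 0 in 3 libraries. Of the 2 gut markers tested, Jon25Biii rose, with 10.2 and 26.1 FPKM in ND-75-i and 0.243 and 0 FPKM in Con (adjusted p = 0.0320). The part of these markers in the change of the mitochondrial ribosome was not tested.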

How the data were processed

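RNA-seq of 4 fat body libraries was analysed, 2 per group. The authors deposited 1 table of gene FPKM per library, with bounds and a status, per the file headers. The submitters' processing notes name Bowtie 0.12.2. Genome build, gene models, strandedness of counting and the FPKM program: not given in the sources used here. Each coordinate is as deposited, with 1 added to starts. The tables held 14146 lines. Of 93 symbols on several lines, the line with the highest mean was kept, and 5 names turned into dates by a spreadsheet were restored by position. FPKM are not counts, so no count test was used.

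Genes with OK status in all 4 libraries (13882) and at least 1 FPKM in at least 2 were tested with limma 3.58.1 in R 4.3.3 on log2(FPKM + 1), with an intensity trend. The model held group alone, tests were two-sided, and Benjamini-Hochberg adjusted p-values were read at 0.05. Residual degrees of freedom were 2 and prior ones 1.95. Low genes have their change understated on this scale. Current symbols were found in RefSeq for 13734 of 13990 (98.2%). Transcript lengths came from Ensembl's annotation. Python 3.11.15, pandas 2.3.3 and matplotlib 3.10.9 were used.

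Members and lists were chosen with earlier results of these data known. Genes named were all untested or lower members, the 6 called with the smallest p, the 4 nearest 0 and the 2 most and least abundant per subunit, and, from the translation list, the 6 with the smallest p and any below 0. Other members and genes of the translation list are marked as named after their values were seen. RpL24-like, RpL7-like, CG10602, Taz, ox and CG8993 were also named outside this rule. The test was also run on simulated data with independent errors and no shift shared within a library, so that run does not cover such shifts. Alternatives were 2 scalings, 2 pseudocounts, 2 low filters, a replicate block and each library left out. Promoter sequences were not used here.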

Additional observations from a re-analysis of the deposited data

How the results depend on the processing

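The other low filters and the block leave the log2 change of each gene as it was. Where groups do not overlap, as in 70 of the 71 genes, another pseudocount or a left-out library cannot turn its sign. The remaining gene, mRpL33, stayed above 0 in these settings too. In limma 0 of the 71 were lower under any setting that kept all 4 libraries, with 0 at an unadjusted p below 0.05. Counts of calls moved. After median-ratio rescaling, limma called 14 of the 71 higher (8 large, 6 small), with medians of 0.54 and 0.53, 2 of the translation list, 1 of the 3 genes under other names, 0 cytoplasmic ribosomal genes and 348 of all genes. Quantile normalization gave 18 (11 large, 7 small), medians of 0.57 and 0.56, 1 cytoplasmic gene and 379 lower genes in all. The share of higher genes among all calls was 87.7% as deposited, 71.5% after median ratios and 61.5% after quantiles. A pseudocount of 5 gave medians of 0.70 and 0.69 and 33 cytoplasmic genes, and one of 0.1 gave 8. No low filter, with more genes tested, gave 5 (2 large, 3 small), 0 of the translation list, 1 under another name, 0 cytoplasmic and 13 complex I genes, and 214 higher and 50 lower in all. A mean of at least 5 FPKM, with fewer tested, gave 47 (17 small) and 74 cytoplasmic genes, where 17.1% of the 6651 genes tested were higher. For rescaling, quantiles and pseudocounts the cause was not tested.

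Same-numbered libraries had replicate differences correlated at 0.357 over all genes and 0.134 over the 71, but the labels do not pair them. The replicate block gave 32 of the 71 higher, 27 of them shared with the 31, and 4 cytoplasmic genes and 198 lower genes in all. With 1 library left out (each in turn, and fewer samples), limma called 0 in every list and 0 to 2 higher and 0 to 1 lower of all genes. Medians were 0.75 to 0.93 in the large and 0.70 to 0.88 in the small subunit.

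Signs turned for genes near 0. After median ratios, mRpL33 was at -0.026, mRpL52 at -0.052 and mRpS18C at -0.047, and after quantiles mRpL52 and mRpS18C were at -0.023. CG5660 ran from -0.52 to 0.079 with 1 library left out. With 2 libraries a group and unknown read depth, the smallest change called among the 71 was 0.77, of mRpL24, named after its values were seen.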
